A study of Mus musculus with 24 samples.

Results

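The genes described are the molecular chaperones and their partners that carry an Hsp, Dnaj, Bag, Cct, Tcp1 or Hsf symbol. They were taken by symbol alone, as every Hspa, Hspb, Hsp90, Hspd1, Hspe1, Hsph1, Dnaja, Dnajb, Dnajc, Bag1 to Bag6, Cct2 to Cct8, Tcp1, Hsf1 and Hsf2 entry listed in all 4 deposited tables. This gave 75 of the 14014 genes listed in all 4 tables. They comprise 39 DNAJ genes, 21 HSP genes, 6 BAG genes, 7 subunits of the TRiC chaperonin and 2 heat shock factors. By the compartment in which the protein is known to work, 41 are cytosolic, 14 belong to the endoplasmic reticulum (ER), 10 to mitochondria and 10 to other or uncertain places. Hspb1, the small heat shock protein HSP25, matched the symbols but is not listed in the table that sets CL KO beside CL WT, so it is not counted.

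Total RNA depleted of ribosomal RNA was sequenced from mouse cortex in 24 libraries, 6 in each of 4 groups. The animals were males of 3 to 4 months that underwent transient middle cerebral artery occlusion, a filament model of ischemic stroke, with 1 h of occlusion and 1 day of reperfusion. Every sample carries the strain name C57BL/6N-Cdr1asem1Nikr, and the genotype is WT or KO for ciRS-7, a circular RNA also called Cdr1as. Each animal gave a sample marked CL and a sample marked PI, marks that are used here as given because the labels do not spell them out. All 4 groups therefore come from operated animals, and no sham-operated group was analysed here. The design asks how PI differs from CL in each genotype and whether loss of ciRS-7 alters this.

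Chaperones bind unfolded stretches of other proteins and help them to fold, to stay soluble or to reach the proteasome. HSP70 proteins (Hspa genes) do so in cycles of ATP hydrolysis that J-proteins (Dnaj genes) start and that HSP110 and BAG proteins end by exchanging the nucleotide. HSP90 proteins mature kinases and receptors, TRiC folds actin and tubulin in a closed barrel, and small heat shock proteins (Hspb genes) hold aggregating proteins without ATP. The heat shock factor HSF1 switches on many cytosolic and some mitochondrial chaperones through repeated GAA units, the heat shock element, whereas the unfolded protein response acts on ER chaperones partly through the ER stress element. Induction of HSP70 in the ischemic cortex is a long-known response to stroke.

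Each of 4 deposited tables holds 2 of the groups and gives log2 CPM, a read count per gene relative to the size of its library, and each was scaled on its own. The size of 1 read, read from the steps between low values, made 1 CPM worth 5.26 to 10.5 reads, depending on the library, and 3 reads worth 0.286 to 0.571 CPM. No member fell under that limit in the known values of either comparison of PI with CL. Of the 6 values of a gene in a group, the bottom 2 are equal and so are the top 2, because the ends were set to the quartiles. The inner 4 values can be solved from this and the outermost cannot, so ranges below run from the second lowest to the second highest library, and differences are those between means of the inner 4 values. Cdr1as, the targeted transcript, stood at 3386 to 3809 CPM in CL WT and 2594 to 3004 CPM in PI WT. In the KO groups its known values reached at most 0.148 CPM (CL KO) and 0.169 CPM (PI KO), under the limit of 3 reads. The neuronal markers summed to between 6858 and 8634 CPM in every library of the 4 groups. CL KO 6 stood apart from its group, with 44.8% of genes in the top pair of values and 44.6% in the bottom pair, against 26.3% to 40.6% in the other 23 libraries. The counts of PI against CL are therefore also given without this library and without each other one.

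The promoters of the members are shown first, because heat shock and ER stress elements are the best-known control sequences of these genes. RefSeq (GRCm38.p6) promoter entries were found for 60 of the 75 members, and the 250 bases before each start were searched for GAANNTTC or TTCNNGAA, the pair of facing units, where each pattern is its own reverse complement. A gene was counted if any of its entries matched, and the 60 members have 80 entries. For 58 of the 80, the bases after the start were found in an annotated transcript of the gene. This pair was present in 15 of 60 members (25%). It was present in 12.0% of the 10207 genes listed in all tables that have an entry and 14.5% of all 27025 genes with an entry. Hspa1a and Hspa1b, the stress-inducible cytosolic HSP70 genes, lie next to each other on chromosome 17 and differ at 3 of the 250 bases. Both hold the pair 104 to 97 bases before the start. Their last 150 bases before the start follow, on the minus strand, with the pair in capitals.
Hspa1a, chr17:34972157-34972306: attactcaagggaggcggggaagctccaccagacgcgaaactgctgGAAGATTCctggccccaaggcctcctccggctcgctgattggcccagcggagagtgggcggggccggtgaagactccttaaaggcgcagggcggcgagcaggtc
Hspa1b, chr17:34959239-34959388: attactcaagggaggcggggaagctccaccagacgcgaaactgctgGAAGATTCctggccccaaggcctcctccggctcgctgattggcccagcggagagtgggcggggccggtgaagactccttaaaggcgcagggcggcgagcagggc

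The longer element of 3 facing units (GAANNTTC followed by NNGAA, or TTCNNGAA followed by NNTTC, each the reverse complement of the other and each containing the pair) was found in 3 of 60 members, Hspd1, Hspe1 and Dnajb6, against 0.46% of listed genes. Hspd1 and Hspe1, the mitochondrial chaperonin and its lid, are transcribed head to head from chromosome 1 and share a stretch of 4 facing units that holds 2 overlapping matches, read here from both strands. The remaining sites are those of members that passed a test below, on the strand of the gene, with the matched letters in capitals.
Hspd1, chr1:55088053-55088082, minus strand: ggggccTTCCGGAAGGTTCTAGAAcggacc
Hspe1, chr1:55088053-55088082, plus strand: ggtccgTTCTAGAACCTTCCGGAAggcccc
Hsph1, chr5:149636351-149636380, minus strand: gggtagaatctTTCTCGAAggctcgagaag
Dnaja1, chr4:40722333-40722362, plus strand: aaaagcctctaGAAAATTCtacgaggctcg
Cct2, chr10:117063399-117063428, minus strand: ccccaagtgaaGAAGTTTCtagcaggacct
Hspb6, chr7:30553170-30553199, plus strand: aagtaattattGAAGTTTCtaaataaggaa

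The ER stress element, CCAAT and CCACG with 9 free bases between them, on either strand, was found in 3 of 60 members against 0.157% of listed genes. All 3 are ER members, out of 12 ER members with an entry: Hspa5 (BiP), Hsp90b1 (GRP94, with 2 matches) and Dnajc3 (a BiP co-chaperone). These sites are shown for contrast with the cytosolic ones.
Hspa5, chr2:34772019-34772048, plus strand: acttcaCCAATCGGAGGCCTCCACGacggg
Hsp90b1, chr10:86705633-86705662, minus strand: acaagcCCAATCGCAAGGAGCCACGcttcg
Dnajc3, chr14:118937821-118937850, plus strand: ccacaaCCAATCAGCGCCAACCACGacccg

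A match to these letters is a description of the sequence and no evidence that a factor binds there. No promoter entry was used for 15 members, Hsp90aa1, Hsp90ab1, Hspa8, Hspa9 and Hsf1 among them.

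In WT, 12 members were higher and 3 lower in PI than in CL, among 75. The larger rises were those of the inducible HSP70 genes, the small heat shock proteins Hspb6 and Hspb8, the HSP110 gene Hsph1 and the mitochondrial pair Hspe1 and Hspd1. The members that fell were the HSP70-like Hspa12a and the J-proteins Dnajc21 and Dnajb5. In KO, 15 members were higher and 2 lower, with the same inducible, HSP110 and mitochondrial genes in front. A gene passed at a Benjamini-Hochberg adjusted p under 0.05 in a moderated trimmed-mean test over all genes of a table. The 15 members that passed in WT are 20% of the members, where 10.6% of 14489 genes passed. The higher ones are 16.0% against a background of 5.2%, and the lower ones 4.0% against 5.4%. In KO the 17 members that passed are 22.7%, where 10.0% of 14338 genes passed, with 20% against 5.11% higher and 2.67% against 4.94% lower. Of the members, 11 passed in both genotypes, each in the same direction, which is 73.3% of the WT calls and 64.7% of the KO calls. The same shares over all genes were not computed, so this overlap is not shown to be particular to the members. No animal is shared between the genotypes. Because PI and CL with the same number come from the same animal, a paired fit was also made, and it called 20 members in WT and 25 in KO and lost none. Over all genes the paired fit also called more, 2275 of 14489 in WT and 2154 of 14338 in KO, beside 1537 and 1440 unpaired. Leaving out each of the 12 libraries of a comparison in turn gave 10 to 16 members in WT. In KO it gave 7 to 22, the lowest without PI KO 2. Over all genes the same fits called 1117 to 1468 in WT and 900 to 1602 in KO, with 922 without PI KO 2. The KO count of members was 11 without PI KO 3, CL KO 4 or CL KO 6, 10 without PI KO 5, CL KO 1, CL KO 2 or CL KO 5, and 9 without CL KO 3. It was 22 without PI KO 1, 19 without PI KO 4 and 18 without PI KO 6. These fits rest on 3 values in place of 4 in 1 group, and the part of this in the counts was not tested. No called member changed its direction in any of these fits. Of the calls, 9 of 15 in WT and 7 of 17 in KO stood in every such fit. A prior variance that takes no account of level gave 9 members in WT (Hspa1b, Hspb6, Hsph1, Hspe1, Bag3 and Cct7 higher, Dnajc21, Hspa12a and Hspb3 lower) and 5 in KO (Hspa1b, Cct3 and Dnajc25 higher, Dnajc21 and Hspa12a lower). The count over all genes under this prior is not given here. In all 20 fits made for a comparison, 7 members passed in WT (Hspa1b, Hspb6, Hsph1, Hspe1, Cct7, Dnajc21 and Hspa12a) and 4 in KO (Hspa1b, Cct3, Dnajc21 and Hspa12a).

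**Figure D1:**
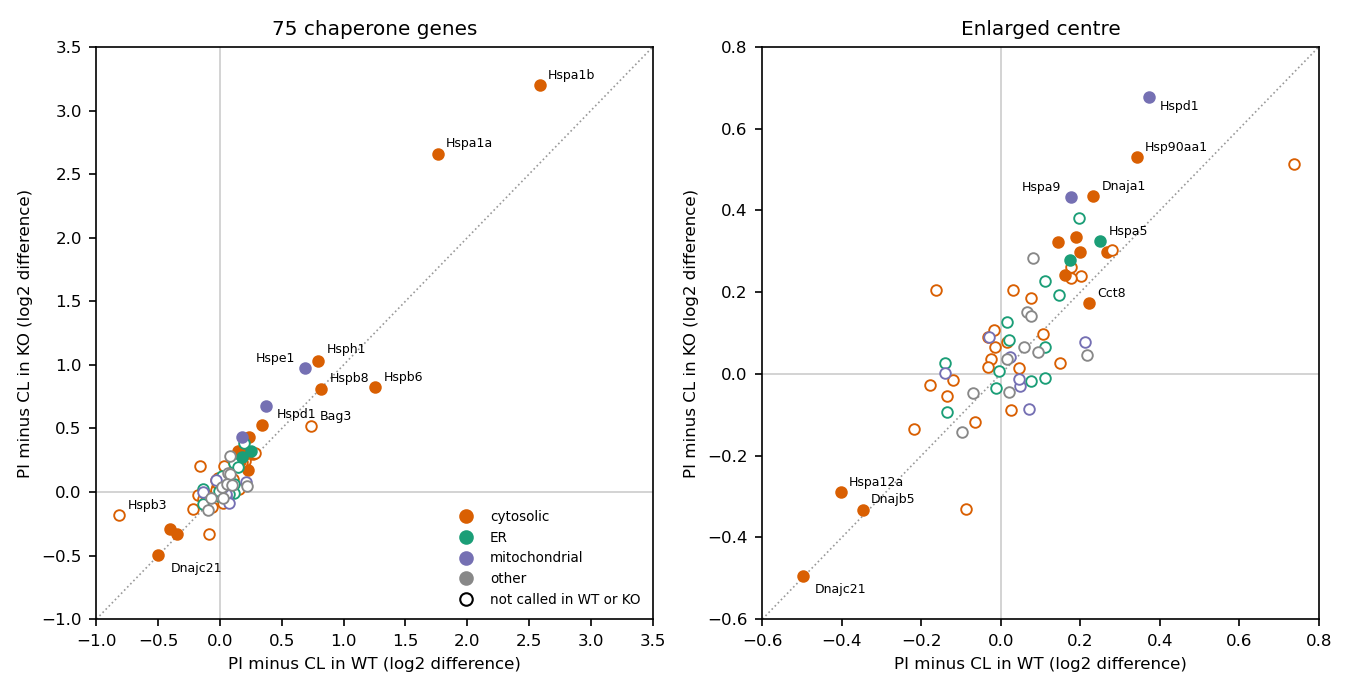
Log2 difference between PI and CL of the 75 genes, in WT on the horizontal and in KO on the vertical axis, coloured by compartment, filled where the gene passed the test in either genotype, with the crowded centre enlarged at the right. Hspa1b and Hspa1a stand apart at the upper right, and Dnajc21, Hspa12a and Dnajb5 are the filled points at the lower left.

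Hspa1b, an inducible cytosolic HSP70, had the largest difference of any member. Its level in CL WT was 8.36 to 10.2 CPM (median 9.34), and in PI WT 32.96 to 92.4 CPM (median 61.1). In CL KO it was 7.11 to 12.0 CPM (median 9.50), and in PI KO 41.0 to 204 CPM (median 95.3). The known PI values lay above the known CL values in both genotypes. The log2 difference was 2.59 in WT (SE 0.35, n = 6 per group, adjusted p = 0.000649, trimmed-mean test with limma) and 3.20 in KO (SE 0.54, adjusted p = 0.00302).

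Hspa1a, its near-identical neighbour, moved alike from 7.06 to 9.21 CPM in CL WT to 13.1 to 44.2 CPM in PI WT, and from 6.34 to 8.19 CPM in CL KO to 23.0 to 117 CPM in PI KO. The log2 differences were 1.76 (SE 0.39, n = 6 per group, adjusted p = 0.0121 with limma) and 2.66 (SE 0.53, adjusted p = 0.00733). Reads that fit both copies could have been split between them in a way the labels do not state, and an exon of the opposite-strand gene Gm20481 overlaps Hspa1a over 564 bases. The sum of both genes, on deposited values, had a median of 17.4 CPM in CL WT, 93.4 in PI WT, 16.5 in CL KO and 142 in PI KO. Both calls of each gene stood in every fit that left out a library, and those of Hspa1a missed the threshold with a prior variance without a trend (adjusted p = 0.0689 and 0.0568). The spread also grew: PI libraries covered 48.7 to 134 CPM in WT and 65.4 to 291 CPM in KO, CL libraries only 15.6 to 18.9 and 14.1 to 19.5 CPM.

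**Figure D2:**
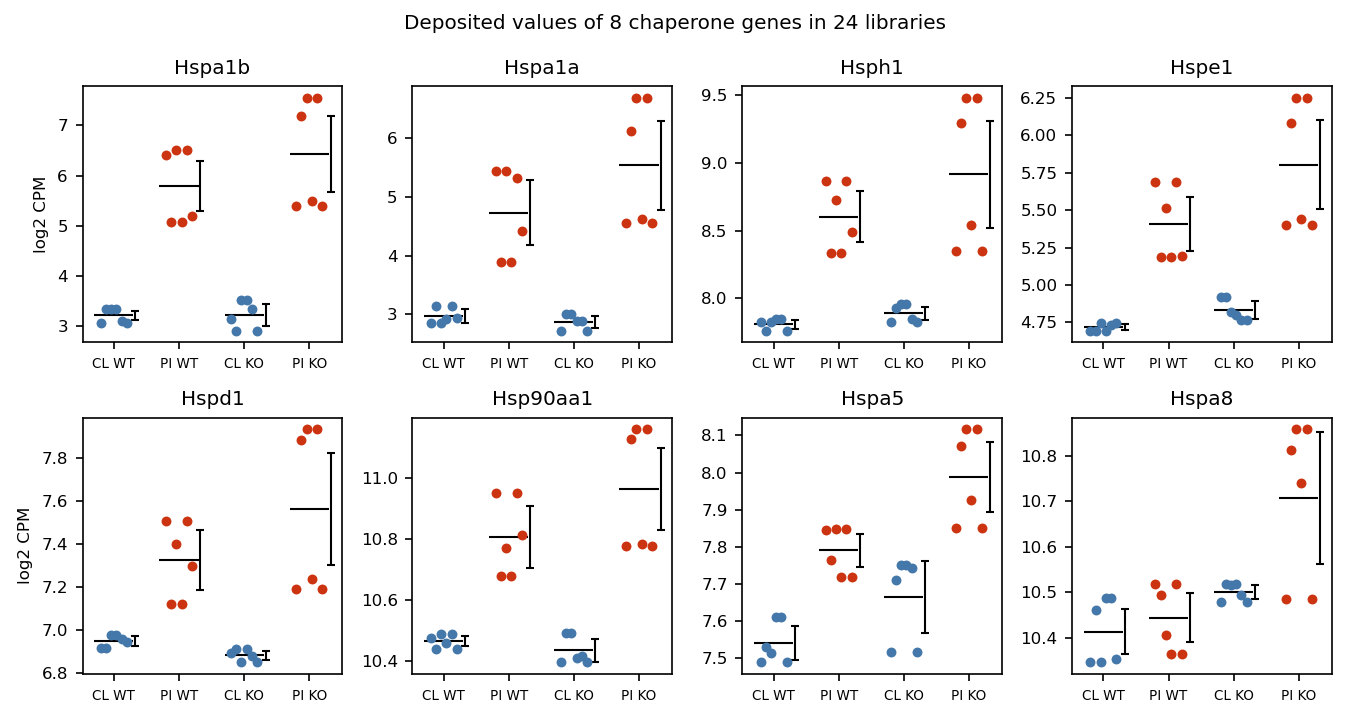
Deposited log2 CPM of 8 members in all 24 libraries, by group, with replicates 1 to 6 from left to right within a group; the line is the mean of the inner 4 values and the bar its standard error (n = 6). CL and PI points as deposited are separate in both genotypes for Hspa1b, Hspa1a, Hsph1, Hspe1, Hspd1, Hsp90aa1 and Hspa5, and overlap for Hspa8. The outermost value of each group is unknown.

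The other cytosolic HSP70s named here had smaller differences. Hspa8 (HSC70), which clears clathrin coats and binds nascent proteins, was at 1299.9 to 1443 CPM in CL WT and 1305 to 1474 CPM in PI WT, a log2 difference of 0.03 with a 95% interval of -0.11 to 0.17. In KO it was at 1422 to 1469 CPM in CL and 1353 to 1876 CPM in PI, where the known values overlap. The KO difference was 0.21 and did not pass (adjusted p = 0.266 with limma). It did pass in the paired fit (adjusted p = 0.0398), without PI KO 1 or PI KO 6, and in limma on the deposited values. Hspa2, another cytosolic HSP70, had 28.7 to 33.02 CPM in CL KO and 23.0 to 27.4 CPM in PI KO, a difference of -0.33 (adjusted p = 0.0517, 0.0222 in the paired fit with limma). Hspa4 and Hspa4l, of the HSP110 family, differed by -0.02 and -0.12 in WT and by 0.11 and -0.01 in KO, with no call.

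Hspa12a, a distant HSP70 relative abundant in brain, fell. It was at 274 to 293 CPM in CL WT and 193 to 226 CPM in PI WT, and at 262 to 272 CPM in CL KO and 212 to 223 CPM in PI KO, without overlap. The log2 differences were -0.40 (SE 0.07, n = 6 per group, adjusted p = 0.00262 with limma) and -0.29 (SE 0.05, adjusted p = 0.00307), and both calls stood in every fit that left out a library.

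Hsph1 (HSP105), the nucleotide exchange factor of HSP70, rose from 214 to 231 CPM (median 227) in CL WT to 312 to 483 CPM (median 391) in PI WT. In KO it went from 226 to 250 CPM (median 237) to 313 to 746 CPM (median 499). PI and CL did not overlap in either genotype. The log2 differences were 0.79 (SE 0.14, n = 6 per group, adjusted p = 0.00291 with limma) and 1.03 (SE 0.27, adjusted p = 0.0336). The KO call held only without PI KO 1, 4 or 6 among fits leaving out a library, with adjusted p up to 0.104.

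Hsp90aa1, the stress-responsive cytosolic HSP90, was the most abundant member per length of exon. In CL WT it stood at 1384 to 1440 CPM, in PI WT at 1604 to 2044 CPM, in CL KO at 1345 to 1467 CPM and in PI KO at 1751 to 2305 CPM. The difference was 0.34 in WT (SE 0.08, n = 6 per group, adjusted p = 0.0192 with limma), lost without CL WT 2 or CL WT 6 (adjusted p up to 0.0601), and 0.53 in KO (SE 0.11, adjusted p = 0.00756). Its constitutive paralog Hsp90ab1 differed less, by 0.20 in WT (adjusted p = 0.0461 with limma) and 0.30 in KO (adjusted p = 0.0195). Hsp90ab1 went from 711 to 769 CPM in CL WT to 823 to 917 CPM in PI WT, and from 744 to 774 CPM in CL KO to 843 to 1005 CPM in PI KO, again without overlap. The WT call of Hsp90ab1 held only without PI WT 4 (adjusted p up to 0.108 without others), and its KO call was lost without PI KO 2, 3 or 5 or CL KO 2 (up to 0.0661).

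Among the small heat shock proteins, Hspb6 and Hspb8 rose from low levels. Hspb8, a partner of BAG3 in removing aggregates by autophagy, went from 3.42 to 5.04 CPM in CL WT to 6.09 to 8.98 CPM in PI WT, and from 4.26 to 5.90 CPM in CL KO to 6.41 to 11.1 CPM in PI KO. Its log2 differences were nearly equal, 0.82 in WT (SE 0.21, n = 6 per group, adjusted p = 0.0230 with limma) and 0.81 in KO (SE 0.22, adjusted p = 0.0380). The WT call was lost without PI WT 1, 3 or 4 or CL WT 5 (adjusted p up to 0.0619), and the KO call held only without PI KO 3, PI KO 6, CL KO 2 or CL KO 5 (up to 0.0948 without others). Hspb6 (HSP20), known from muscle, went from 1.71 to 2.16 CPM in CL WT to 4.00 to 5.52 CPM in PI WT. That is a difference of 1.26 (SE 0.21, n = 6 per group, adjusted p = 0.00252 with limma). In KO, Hspb6 was at 1.53 to 2.82 CPM in CL and 3.53 to 5.09 CPM in PI, a difference of 0.83 with adjusted p = 0.0886 that passed in the paired fit (0.0433). Hspb3 had the lowest WT difference among all members, -0.81, and did not pass (adjusted p = 0.0973), at 1.88 to 2.51 CPM in CL WT and 1.02 to 1.45 CPM in PI WT. Hspb1, which is outside the count above, rose from 0.577 to 1.11 CPM in CL WT to 4.36 to 6.17 CPM in PI WT, and from 0.892 to 1.75 CPM in CL KO to 4.08 to 10.6 CPM in PI KO. Its differences were 2.57 (SE 0.31, n = 6 per group, adjusted p = 0.000289 with limma) and 2.55 (SE 0.41, adjusted p = 0.00199), of the size of the inducible HSP70 genes. Hspb1 is listed where PI stands beside CL but not where CL KO stands beside CL WT. It may thus be listed only through its PI level, which would favour a large difference, so these values are a description and no independent support.

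The 39 J-proteins moved little. None rose in WT and 2 did in KO, while 2 fell in WT and 1 in KO. The 2 that rose in KO are 5.13% of the J-proteins, where 5.11% of all genes rose, and the 2 that fell in WT are 5.13%, where 5.4% fell. Their median log2 difference was 0.04 in both genotypes (0.01 in both with each group centred on its median gene), beside 0.01 and -0.00 over all genes, whereas the 21 HSP genes had 0.18 in WT and 0.30 in KO with 10 and 9 members higher. Dnaja1, a J-protein of HSP70 anchored by a lipid tail, was at 247 to 257 CPM in CL WT and 273 to 330 CPM in PI WT, and at 240 to 254 CPM in CL KO and 275 to 401 CPM in PI KO. It passed in KO (0.43, SE 0.13, n = 6 per group, adjusted p = 0.0487 with limma), though only without PI KO 1, 4 or 6 among fits leaving out a library (up to 0.139). In WT it did not (0.23, adjusted p = 0.0641 with limma). There it did pass in the paired fit (0.00509), without PI WT 2 or PI WT 4, and in limma on the deposited values. Dnajb1 (HSP40), the main J-protein of inducible HSP70, had 32.7 to 35.6 CPM in CL WT and 34.9 to 49.7 CPM in PI WT, which overlap. Its difference of 0.28 in WT did not pass (adjusted p = 0.185 with limma), but did in the paired fit (0.0230) and in limma on the deposited values. That of 0.30 in KO did not pass (adjusted p = 0.382), except in limma on the deposited values with the replicate block.

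Dnajc21, a ribosome assembly factor, showed the largest fall that passed. It went from 52.9 to 61.2 CPM in CL WT to 40.0 to 43.0 CPM in PI WT, and from 55.4 to 66.3 CPM in CL KO to 42.0 to 46.4 CPM in PI KO. The known values did not overlap, and the log2 difference was -0.50 in both, with adjusted p = 0.00113 in WT and 0.00345 in KO (SE 0.08 and 0.09, n = 6 per group, limma). Dnajb5, a neuronal HSP40 relative, fell by 0.35 in WT (SE 0.08, n = 6 per group, adjusted p = 0.0170 with limma), from 60.2 to 67.8 CPM to 46.2 to 55.2 CPM. In KO, Dnajb5 had a difference of -0.33, with 59.4 to 69.8 CPM in CL and 45.6 to 60.5 CPM in PI, which overlap (adjusted p = 0.0782, 0.00412 in the paired fit). All WT calls of Dnajc21 and Dnajb5 and the KO call of Dnajc21 stood without any single library.

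The TRiC subunits all had positive differences, 7 of 7 in each genotype, and passed in small steps. Over all genes, 7580 of 14489 differences were positive in WT and 7155 of 14338 in KO. In WT, 2 subunits passed, Cct7 and Cct8 (28.6%, where 5.2% of all genes rose). In KO, 4 passed, Cct2, Cct3, Cct7 and Tcp1 (57.1%, where 5.11% of all genes rose). Cct7 (subunit eta) went from 69.6 to 76.5 CPM in CL WT to 84.8 to 89.2 CPM in PI WT, by 0.27 (SE 0.06, n = 6 per group, adjusted p = 0.0120 with limma). In KO it went from 70.7 to 80.9 CPM to 87.1 to 98.8 CPM, by 0.30 (adjusted p = 0.0372). Cct2 and Cct3 rose in KO by 0.32 and 0.34 (adjusted p = 0.0134 and 0.00867), calls that stood without any single library, and Tcp1 by 0.24 (adjusted p = 0.0407). Cct8 rose in WT by 0.22 (adjusted p = 0.0436). Other calls were less steady: Cct8 held only without PI WT 1, 4 or 6 (adjusted p up to 0.102), Tcp1 without PI KO 1, PI KO 4 or CL KO 4 (up to 0.103) and Cct7 in KO without PI KO 1, 4 or 6 or CL KO 4 or 6 (up to 0.104). The paired fit added Cct5 in both genotypes (0.0366 and 0.0169) and Cct4 in KO (0.0287). The median difference of the 7 was 0.19 in WT and 0.26 in KO. Cct6a, the subunit whose symbol falls outside the rule, rose by 0.20 in WT (adjusted p = 0.0341) and by 0.35 in KO (adjusted p = 0.0172). The annotated exons of Cct7, Cct8 and Tcp1 overlap those of genes on the opposite strand (Pradc1, Usp16, and Acat3 with Mrpl18), as do those of Dnaja1 (Smu1 and Gm6297), Hspa12a (Eno4), Hspb6 (Proser3 and Lin37) and Hsp90b1 (1810014B01Rik), and whether reads were counted by strand is not given in the sources used here.

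No BAG gene passed in the trimmed-mean test as described. Bag3, which couples HSP70 to autophagy and is induced by heat shock, came nearest. Its values did not overlap in WT, at 2.06 to 2.65 CPM in CL and 3.25 to 4.57 CPM in PI, with a difference of 0.74 (SE 0.22, adjusted p = 0.0511 with limma). It passed in the paired fit (0.0415), with a prior variance without a trend (0.0428), with log2(CPM + 1) (0.0466) and with a filter on low values (0.0473). In KO it was at 1.62 to 2.57 CPM in CL and 2.90 to 3.33 CPM in PI, a difference of 0.51 (adjusted p = 0.223). The median over the 6 BAG genes was -0.05 in WT and -0.01 in KO.

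In the ER, 1 of 14 members rose in each genotype (7.14%, near the 5.2% and 5.11% of all genes), Hspa5 in WT and Dnajb9 in KO. Hspa5 (BiP), the ER HSP70 and the sensor-binding chaperone of the unfolded protein response, went from 179 to 199 CPM in CL WT to 209 to 230 CPM in PI WT. That is 0.25 on the log2 scale (SE 0.06, n = 6 per group, adjusted p = 0.0227 with limma), a call kept without PI WT 2, 4 or 6 or CL WT 4 or 5 and lost without the others (up to 0.0655). In KO its difference was larger in value, 0.32, from 175 to 216 CPM to 227 to 281 CPM. It did not pass there (adjusted p = 0.0667 with limma). It did pass in the paired fit (0.000368), without PI KO 1 or PI KO 6, and in limma on the deposited values. Dnajb9 (ERdj4), a BiP partner in ER-associated degradation, rose in KO from 49.97 to 53.3 CPM to 57.7 to 66.9 CPM, by 0.28 (SE 0.08, n = 6 per group, adjusted p = 0.0368 with limma). Its call held only without PI KO 1 or PI KO 4 (up to 0.0920 without others). In WT, Dnajb9 overlapped, at 44.1 to 56.9 CPM in CL and 51.8 to 59.4 CPM in PI, with 0.17 (adjusted p = 0.334).

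Hsp90b1 (GRP94), the ER HSP90, had the element shown above but differences of 0.01 in WT (95% interval -0.11 to 0.14) and 0.13 in KO (-0.01 to 0.27). It was at 313 to 341 CPM in CL WT and 307 to 338 CPM in PI WT. Dnajc3 differed by 0.02 and 0.08, with no call. Among uncalled ER members, Dnajc25 had the largest difference in both genotypes on the positive side, 0.20 and 0.38 (adjusted p = 0.325 and 0.0625). On the negative side stood Dnajc10 in WT (-0.14, adjusted p = 0.144), a disulfide reductase, and the membrane J-protein Dnajb12 in KO (-0.09, adjusted p = 0.621).

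Mitochondrial members were led by the chaperonin. Hspe1 (HSP10), its lid, went from 25.9 to 27.0 CPM (median 26.3) in CL WT to 36.3 to 53.8 CPM (median 41.1) in PI WT, and from 26.9 to 31.1 CPM (median 28.1) in CL KO to 41.9 to 79.2 CPM (median 55.6) in PI KO. The differences were 0.69 (SE 0.14, n = 6 per group, adjusted p = 0.00672 with limma) and 0.97 (SE 0.22, adjusted p = 0.0144, lost only without PI KO 2, 0.0539). Hspd1 (HSP60), the barrel, went from 120 to 127 CPM in CL WT to 134 to 186 CPM in PI WT, and from 115 to 121 CPM in CL KO to 144 to 247 CPM in PI KO. PI lay above CL in the known values of both genes and genotypes.

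The log2 differences of Hspd1 were 0.37 (SE 0.11, n = 6 per group, adjusted p = 0.0431 with limma) and 0.68 (SE 0.19, adjusted p = 0.0368). Its WT call held only without PI WT 2 or PI WT 4 (up to 0.108) and its KO call only without PI KO 1, 4 or 6 (up to 0.113). Their exons overlap by 112 bases on opposite strands, and GENCODE lists 6 further copies named after Hspe1 and 5 named after Hspd1, so shared reads are uncertain. Hspa9 (mortalin), the HSP70 that pulls proteins into mitochondria, rose in KO from 187 to 198 CPM to 220 to 301 CPM, by 0.43 (SE 0.11, n = 6 per group, adjusted p = 0.0229 with limma). That call was lost without PI KO 2 or CL KO 3, 4, 5 or 6 (up to 0.0750). In WT it differed by 0.18 without passing (adjusted p = 0.129, 0.0456 in the paired fit). The other 7 mitochondrial members had no call in either genotype, and among them Dnaja3 (TID1), the J-protein of mortalin, had 0.21 in WT (adjusted p = 0.156) and 0.08 in KO.

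Hsf1 and Hsf2, the factors themselves, did not pass. Hsf1 was at 5.35 to 7.09 CPM in CL WT and 4.54 to 7.38 CPM in PI WT (difference 0.02, 95% interval -0.43 to 0.48), and at 5.14 to 8.69 and 6.53 to 7.44 CPM in CL KO and PI KO (-0.04, interval -0.49 to 0.40). Hsf2 differed by 0.08 in WT and by 0.28 in KO (adjusted p = 0.117, 0.0498 in the paired fit with limma).

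No test was made between compartments, and their values are given side by side. Of the cytosolic members 9 of 41 rose in WT and 11 in KO, of the ER members 1 of 14 in each, of the mitochondrial members 2 of 10 in WT and 3 in KO, and of the other 10 none, where 5.2% of all genes rose in WT and 5.11% in KO. The ER count is 7.14% of its members, near that background. All members that fell are cytosolic, 3 of 41 in WT and 2 of 41 in KO. These are 7.32% and 4.88% of the cytosolic members, near the 5.4% and 4.94% of all genes that fell. The median log2 difference in WT was 0.08 in the cytosol, 0.09 in the ER, 0.06 in mitochondria and 0.06 among the rest. In KO the medians were 0.17, 0.07, 0.06 and 0.05. Over all genes tested the median was 0.01 in WT and -0.00 in KO. Centring each group on its median gene lowered every difference by 0.03 in WT and 0.04 in KO, which left the compartment medians positive. It ended the calls of Cct8, Hsp90ab1 and Hspd1 in WT (adjusted p up to 0.0876) and of Cct7, Dnaja1, Dnajb9 and Tcp1 in KO (up to 0.0698), and added a lower call, Hspa2 in KO. The positive members went from 51 to 43 in WT and from 54 to 48 in KO. Without Hspa1a and Hspa1b the cytosolic median was 0.04 in WT and 0.11 in KO. The cytosolic range ran from -0.81 to 2.59 in WT, the ER range from -0.14 to 0.25 and the mitochondrial range from -0.14 to 0.69.

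PI minus CL was also taken within each mouse, with each unknown outermost value set to its known neighbour. The compartment medians were above 0 in 6 of 6 animals in both genotypes for the cytosolic, ER and mitochondrial members. For the other members they were above 0 in 4 of 6 in each genotype. The median over all genes was likewise above 0 in 6 of 6 WT animals, though small (0.002 to 0.010), and in 2 of 6 KO animals. The cytosolic medians ran from 0.05 to 0.16 in WT and from 0.07 to 0.29 in KO, which overlap. Those of the ER ran from 0.00 to 0.12 and from 0.07 to 0.13. The mitochondrial ones ran from 0.04 to 0.23 and from 0.01 to 0.21, and no order between compartments held across animals. Some medians lay close to 0: above the 0.03 in WT and 0.04 in KO by which centring moves all genes lay 6 of 6 cytosolic medians in both genotypes, 4 of 6 ER and 6 of 6 mitochondrial medians in WT, and 6 of 6 and 5 of 6 in KO.

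**Figure D3:**
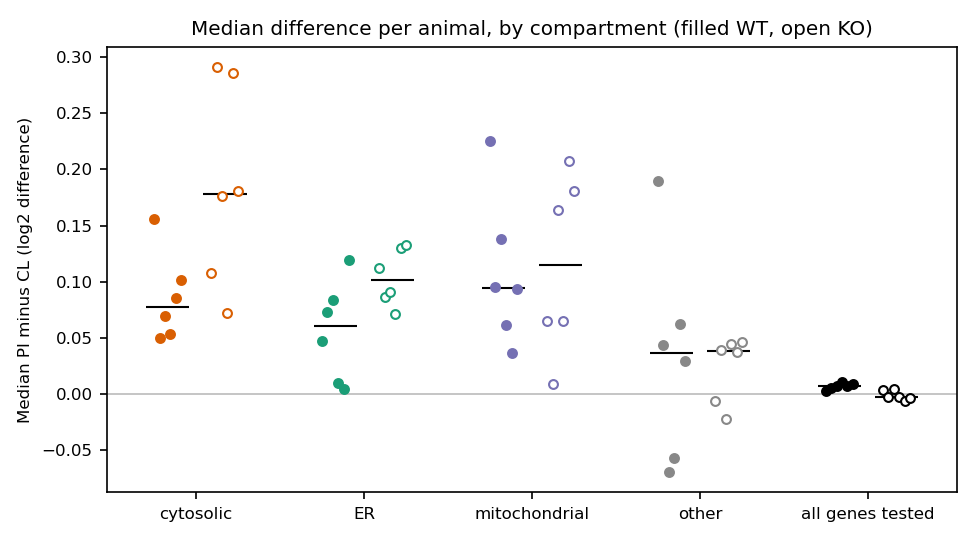
Median log2 difference between PI and CL of the same animal over the members of each compartment, with WT filled and KO open, and a line at the median of 6 animals. The 6 animals of each genotype lie above 0 for cytosolic, ER and mitochondrial members. The median over all genes lies between -0.01 and 0.01 and is above 0 in 6 of 6 WT animals.

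Of the 15 members with a promoter entry that were called higher in PI in either genotype, 8 hold the pair of heat shock units (53.3%). The pair was found in 7 of the 45 not called higher (15.6%) and in 12.0% of the listed genes. The 8 are Hspa1a, Hspa1b, Hsph1, Hspd1, Hspe1, Dnaja1, Hspb6 and Cct2. The 7 with a pair but no call as higher include Dnajb6, which holds the longer element, Dnaja4, Dnajb4, Cct5 and Hspb3. Cct5 was called higher by the paired fit in both genotypes, so this split rests on the threshold of the test. In the nearer 150 bases the counts were 8 of 15 and 4 of 45, beside 6.95% of the listed genes. By compartment the pair was found in 11 of 34 cytosolic, 1 of 12 ER and 2 of 7 mitochondrial members with an entry. Hspa1a and Hspa1b have near-identical promoters, and Hspd1 and Hspe1 share 1 stretch, so these are fewer separate sequences than genes. Dnaja1, Cct2, Hspb6 and Hspd1 also have an annotated start without a match, as do Dnaja4, Dnajb4 and Cct5 among those not called higher. Which start is used in this tissue was not tested.

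Across lengths of annotated exon, 3 cytosolic genes led, with 43.2% of the summed medians of the members in CL WT, 44.4% in PI WT, 43.4% in CL KO and 46.0% in PI KO. In CL WT, Hsp90aa1 stood at a median of 360 CPM per kb, Hspa8 at 316 and Hsp90ab1 at 252, and the next, the clathrin uncoating factor Dnajc6, at 81.8. Hsp90b1 followed at 78.6 CPM per kb. The 3 leaders kept this order in all 4 groups, though the ranges of Hspa8 and Hsp90ab1 overlapped in PI WT (303 to 343 and 274 to 306 CPM per kb) and in PI KO (315 to 436 and 281 to 335 CPM per kb). Hspa1a, at 2.56 CPM per kb in CL WT, was ranked 64 of 74 members with a length. The cytosolic members together held 75.6% of the summed medians per kb in CL WT and 76.1% in PI WT, the ER members 12.4% and 11.8%, and the mitochondrial ones 6.72% and 7.32%. In KO the cytosolic share was 75.4% in CL and 76.8% in PI, and the mitochondrial share 6.55% and 7.67%.

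The genotypes were compared directly within PI and within CL. No member passed in PI KO against PI WT, where 0.0208% of 14452 genes passed, nor in CL KO against CL WT, where 0.0279% of 14323 genes passed (trimmed-mean test with limma). At an unadjusted p under 0.05 stood 3 members in PI (4.0%, background 5.75%), Hspa5, Hspa8 and Dnajc24, and 1 in CL (1.33%, background 5.73%), Dnajb1. In PI the difference between KO and WT was positive for 55 of 75 members and for 19 of 21 HSP genes, with a median of 0.07 for all members and 0.17 for the HSP genes beside -0.00 over all genes. These values come from the same animals and are not independent of each other. In the same comparison the 3 listed neutrophil and monocyte markers of 6 were all positive with a median of 0.77 (S100a8 1.16, S100a9 0.77 and Itgam 0.16, none called), and 5 of 6 microglial markers were positive with a median of 0.18. In CL KO against CL WT, 6 of 6 microglial markers were positive, with a median of 0.21. Also positive in PI were 5 of 6 astrocyte, 5 of 6 oligodendrocyte and 3 of 4 reactive astrocyte markers (medians 0.05, 0.07 and 0.09). So were 5 of 5 smooth muscle and pericyte markers (0.13), beside 4 of 8 neuronal and 2 of 6 endothelial ones. The part of these marker differences in the chaperone differences was not tested. Hspa8 was at 1381 to 1919.6 CPM in PI KO and 1333 to 1506 CPM in PI WT in the table that holds both, a difference of 0.27 (95% interval 0.01 to 0.52, adjusted p = 0.854). Hspa5 differed by 0.20 (interval 0.02 to 0.39, adjusted p = 0.854), and its known values overlap as well.

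For the inducible genes the intervals are wide. Hspa1b differed between PI KO and PI WT by 0.64 (95% interval -0.73 to 2.01) and Hspa1a by 0.81 (-0.60 to 2.22). Hsph1 differed by 0.32 (-0.35 to 0.99) and Hspe1 by 0.40 (-0.14 to 0.94). In CL the same 4 genes differed by 0.02, -0.09, 0.09 and 0.12, with intervals between -0.43 and 0.43.

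The interaction asked whether the PI minus CL difference itself depends on genotype. None of 14211 genes passed (0.0%), and at an unadjusted p under 0.05 stood 0 members where 4.55% of genes did. By the other fits, limma on the deposited values called 7 members, with the replicate block or without, and those values have an understated spread. The difference of differences was 0.62 for Hspa1b (95% interval -0.92 to 2.16), 0.25 for Hspa9 (-0.03 to 0.54), 0.18 for Cct2 (-0.02 to 0.38) and -0.43 for Hspb6 (-1.18 to 0.32). The 10 genes that passed in only 1 genotype are thus not shown to differ between genotypes.

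**Figure D4:**
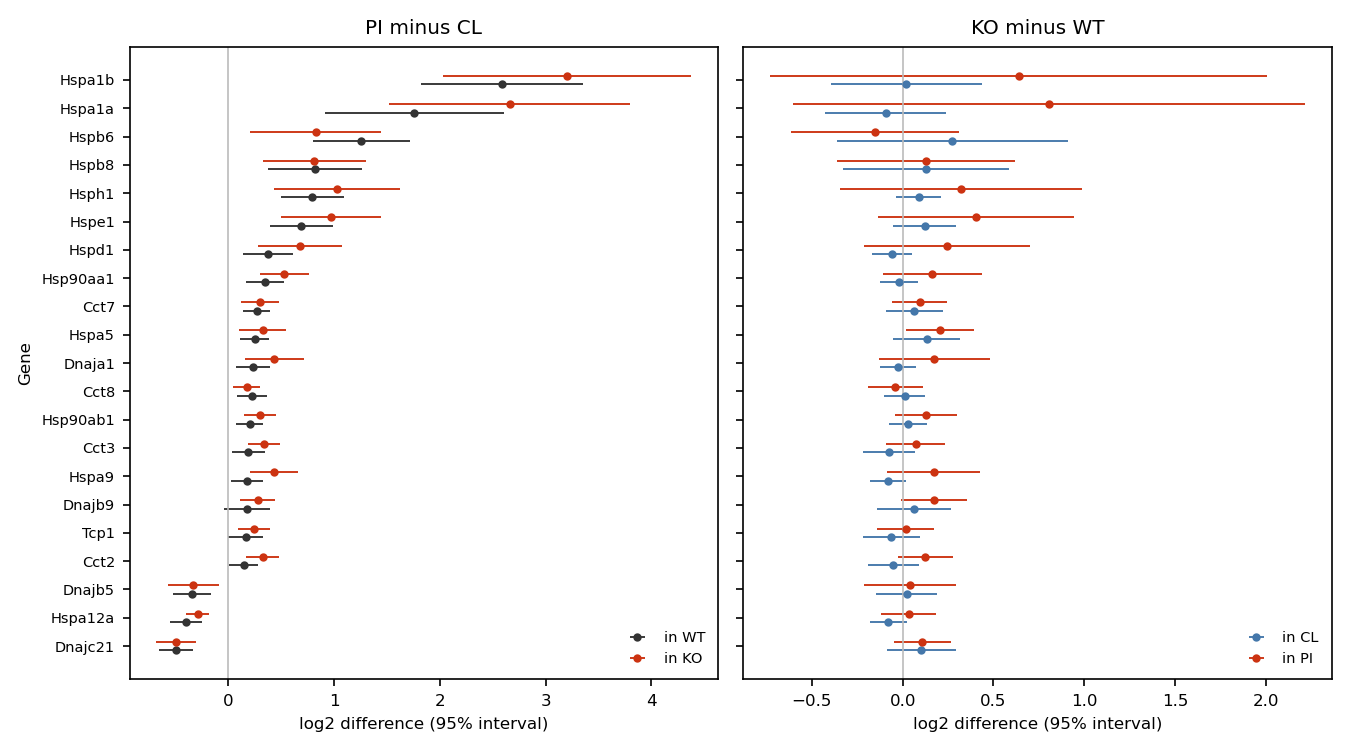
Log2 differences with 95% intervals of the 21 members that passed in either genotype, PI minus CL at the left and KO minus WT at the right. The intervals at the left exclude 0 for both genotypes in most genes, whereas those at the right include 0 except for Hspa5 in PI, and are widest for Hspa1b and Hspa1a in PI.

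Libraries within PI were not alike. For Hspa1b in PI KO, libraries 2, 3 and 5 had 7.18 to 7.55 log2 CPM as deposited and libraries 1, 4 and 6 had 5.39 to 5.49. Hspe1 showed the same parting, at 6.08 to 6.25 against 5.40 to 5.44 log2 CPM, and so did Hspd1, at 7.88 to 7.93 against 7.19 to 7.24. Among the 15 members higher in KO, library 5 held a top value of the group in 14 and library 3 in 12, while library 1 held a bottom value in 12 and library 6 in 10. Over all 75 members, library 5 held a top value in 40 and library 3 in 37, while library 1 held a bottom value in 39 and library 6 in 42. Over all genes these libraries held a top value in 30.7% to 37.7% and a bottom value in 29.3% to 38.0% of cases. In CL KO, library 6 held a bottom value in 14 of the 15, in 48 of all 75 members and in 44.6% of all genes. In PI WT, library 5 held a top value in 9 of the 12 members higher there, in 40 of all 75 members and in 31.7% of all genes. Library 4 of PI WT held a bottom value in 8 of the 12, in 43 of all 75 and in 40.1% of all genes. The members counted as higher were picked by these same values, which partly fixes such counts. The extent of injury in each animal was not analysed here, and its part in these differences was not tested.

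In 3 lists of folding genes outside the symbol rule, 6 of 59 genes passed in WT and 6 of 59 in KO, which is 10.2% in each and near the 10.6% and 10.0% of all genes. Of 25 cytosolic heat shock and co-chaperone genes, 2 rose and 1 fell in WT, and 3 rose and 1 fell in KO, with medians of 0.07 and 0.12. These were Cct6a, the HSP90 cochaperone p23 (Ptges3, by 0.33 in WT with adjusted p = 0.00994 and 0.29 in KO with 0.0307) and, in KO, the prefoldin subunit Pfdn4 (by 0.47, adjusted p = 0.00670). Sgtb, a neuronal cochaperone, fell by 0.27 in WT (adjusted p = 0.00492) and by 0.30 in KO (adjusted p = 0.0424). Of 22 genes of ER folding and the unfolded protein response, 3 rose in WT and 2 in KO and none fell, with medians of 0.07 and 0.14. The protein disulfide isomerase P4hb rose in both, by 0.36 (adjusted p = 0.00686) and 0.45 (adjusted p = 0.00106). Atf4, the translationally controlled stress factor, and Edem1, of ER-associated degradation, rose in WT (0.24 and 0.32, adjusted p = 0.0470 and 0.0233), and Xbp1, the factor spliced by IRE1, in KO (0.25, adjusted p = 0.0432). Of 12 genes of mitochondrial folding and proteolysis none passed in either genotype (trimmed-mean test with limma, adjusted over all genes of a table), with medians of 0.04 and 0.10.

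Markers of cell types also moved between CL and PI, and in bulk tissue a change in the number of cells cannot be told from a change in RNA per cell. All 4 reactive astrocyte genes rose in both genotypes, their summed level going from 96.2 to 119 CPM in CL WT to 381 to 441 CPM in PI WT, and from 90.1 to 107 CPM to 370 to 516 CPM in KO. Of 8 neuronal markers, 2 fell in WT, and 2 fell and 1 rose in KO. Their sums went from 8048 to 8634 CPM to 7055 to 7786 CPM in WT and from 7961 to 8332 CPM to 6858 to 7562 CPM in KO. Of 6 astrocyte markers 1 rose and 2 fell in WT and 1 rose and 1 fell in KO, and of 6 microglial markers 2 rose and 1 fell in both. The oligodendrocyte sums were 2080 to 2272 CPM in CL WT and 1429 to 2039 CPM in PI WT (1 of 6 lower), and 1663 to 2254 and 1590 to 1806 CPM in KO (none of 6). Of 6 endothelial markers 1 fell, in KO, and of 5 listed smooth muscle and pericyte markers 1 fell, in WT.

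Of 6 neutrophil and monocyte markers only Itgam, which microglia share, is listed in the tables that hold PI and CL together, and it rose in both genotypes, from 7.75 to 8.35 CPM to 15.6 to 18.9 CPM in WT and from 8.98 to 10.5 CPM to 16.7 to 22.2 CPM in KO. None of 5 ependymal and choroid plexus markers is listed where PI and CL are set side by side. The part of these shifts in cell makeup in the chaperone differences was not tested.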

How the data were processed

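The authors deposited log2 CPM values in 4 tables of 12 libraries each, per the file headers, with the build mm10 per the submitters' processing notes. Aligner, counting, use of strand and scaling are not given in the sources used here. Groups and animal numbers came from the sample titles, each column name matched 1 sample, and 0 columns were left unused. The 4 tables were scaled separately, so tests stayed within a table, except the interaction. The values were found to be Winsorized, with 100% of genes tied at both ends of each group. The tied value was solved as the quartile, 0.75 times the second value plus 0.25 times the next. Low tied values were whole multiples of 1 read, within 0.03 read, in 78.7% to 87.6% after this step and 10.3% to 13.6% before it, where chance gives 11.6%.

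Means of the inner 4 values were compared with the Winsorized sum of squares, 6 degrees of freedom for 2 groups or 12 for 4, and the empirical Bayes step of limma 3.58.1 (R 4.3.3) with a trend on level. Tests were two-sided, with Benjamini-Hochberg adjustment over all genes of a table. They were also run on simulated independent values with equal spread in both groups, with an outcome not given here. That simulation does not cover groups of unequal spread, such as those of the inducible HSP70 genes. A standard error after a difference is that of the trimmed-mean test. The differences are those of log2 CPM with no pseudocount added. PI and CL with the same number come from the same animal by the titles, and the deviations of such pairs correlated by -0.01 to 0.17 in WT and -0.04 to 0.16 in KO, so the paired fit is given where it changes a call.

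The members, compartments, lists and tests were chosen with earlier results of these data known. Genes named are all members that passed, the lead chaperone of each compartment, the member of smallest p in each comparison, the uncalled extremes of each compartment, and the called genes of 3 lists of folding genes outside the rule. Hspa2, Hspa4, Hspa4l, Hspb1, Dnajc3, Dnajc24, Cct4, Cct5 and the members with a promoter match but no call were added after their values were seen. Of the 75 members, 74 were found by symbol in GENCODE M21 (GRCm38), all but Dnajb6-ps, for exon lengths and overlaps. Promoters are RefSeq entries on GRCm38.p6. A planned description of protein ends and J domains was not run. The alternatives tried were limma on the deposited values, a prior variance without a trend, centring on the median gene, log2(CPM + 1), a filter on low values, the replicate block and, added after the data had been seen, leaving out each library.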

Additional observations from a re-analysis of the deposited data

How the results depend on the processing

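Limma on the deposited values, whose spread is understated, called 43 members in WT and 36 in KO between PI and CL, 6 between PI KO and PI WT, 8 between CL KO and CL WT and 7 for the interaction. A prior variance without a trend called 9 in WT and 5 in KO, and the cause was not tested. For both of these settings the count over all genes is not given here, so the member counts stand without a background. Leaving out each library, chosen after seeing the data, gave 10 to 16 members in WT and 7 to 22 in KO, beside 1117 to 1468 and 900 to 1602 of all genes. The count with log2(CPM + 1), with a filter at 0 log2 CPM and with each group centred on its median gene stayed within 1.5 times the count reported, at 12 to 16 in WT and 14 to 18 in KO. Under that centring the median of the ER members in KO was 0.0385 and 5 single differences turned negative, Hsf1 in WT to -0.0117, Hsp90b1 in WT to -0.0180, Hspa8 in WT to -0.00249, Dnajc10 in KO to -0.00849 and Dnajc28 in KO to -0.0336. All differences fell together there by construction, and none of the 5 was called. Of 490 values of named genes under the alternatives, 397 kept direction and side of the threshold, 60 came to pass, 28 no longer passed and 5 turned. Depth sets a limit of up to 0.571 CPM, and the outermost value of each group is unknown, so no library could be tested as an outlier.

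With the replicate block, the paired trimmed-mean fit called 20 members in WT, 25 in KO and 0 in the 3 other comparisons, and limma with the block on the deposited values called 41, 39, 5 (PI), 7 (CL) and 7 (interaction). Over all genes the paired trimmed-mean fit called 2275 in WT and 2154 in KO. It changed no call of a member other than those given with the genes. KO and WT animals share only a number, with correlations of same-numbered libraries from -0.23 to 0.11 in CL and -0.15 to 0.11 in PI, and the best match was the own number in 2 of 6 and 1 of 6.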
